A study of Mus musculus with 9 samples.

Results

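The miRNAs of striated muscle were followed in mouse liver: mmu-miR-1a-3p, mmu-miR-133a-3p, mmu-miR-133b-3p, mmu-miR-206-3p, mmu-miR-208a-3p, mmu-miR-208b-3p and mmu-miR-499-5p, written below without the mouse prefix. They were taken by name from the deposited table of mature miRNAs, where the names match 8 of 946 rows. The row of miR-1b-5p holds the reads of miR-1a-3p, with counts that differed by 0.0441% to 0.242% in each library, so these rows count as 1 miRNA and 7 distinct miRNAs remain. The mice were wild type, of strain C57 BL6, and 8 weeks old. Control mice were given saline, APAP mice were injected into the peritoneum with acetaminophen (APAP) at 500 mg/kg, and dmPGE2+APAP mice received dmPGE2, a methylated analog of prostaglandin E2, at 300 μg/kg 1 h before that dose of APAP. APAP livers and dmPGE2+APAP livers were taken 6 h after APAP, and each of the 3 groups holds 3 small-RNA libraries. The labels describe no group with dmPGE2 alone and no vehicle for dmPGE2, and nothing says that the libraries are separate animals, so p-values measure only the spread between libraries, which may be technical.

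miRNAs are short RNAs that guide the silencing complex to messenger RNAs, and bases 2 to 8 from the 5′ end, the seed, do most of the target pairing. miR-1 and miR-133 are made from shared primary transcripts in heart and skeletal muscle, where miR-1 favours differentiation and miR-133 is tied to proliferation of muscle precursors. miR-206 is a skeletal muscle relative of miR-1, while miR-208a, miR-208b and miR-499 lie in myosin heavy chain genes and help to set which myosins a muscle fibre makes. Healthy hepatocytes are not known as a main source of these miRNAs.

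The mature sequences are shown because they group the miRNAs by seed, and because near-identical members can trade reads. They were matched by name for 5 of the 8 rows and come from RefSeq on GRCm38.p6, 5′ to 3′, with the seed in capitals.
miR-206-3p: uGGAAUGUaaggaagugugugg
miR-133b-3p: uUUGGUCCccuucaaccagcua
miR-208a-3p: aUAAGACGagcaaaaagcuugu
miR-208b-3p: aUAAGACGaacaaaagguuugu
miR-499-5p: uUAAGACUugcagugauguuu

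The seed of miR-208a-3p and miR-208b-3p is the same, and it matches that of miR-499-5p at 6 of 7 bases. Over their 22 bases the miR-208 pair differ at 3 positions outside the seed, G10A, A16G and C18U, counted from the 5′ end with the base of miR-208a-3p first. miR-133a-3p and miR-133b-3p are known to be nearly identical, and miR-206 is known to share the seed of miR-1. No source used here states the mapping settings, and how reads were split between such relatives was not tested.

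The hairpins of the 5 miRNAs whose sequences are shown lie among muscle genes on GRCm38.p6. Those of miR-1a-3p and miR-133a-3p are not given here. Mir206 (chromosome 1, 20679010 to 20679082) and Mir133b (chromosome 1, 20682769 to 20682887) stand 3686 bases apart on the plus strand, and both overlap Lincmd1, a long noncoding RNA of muscle differentiation. Mir208a (chromosome 14, 54949060 to 54949142, minus strand) overlaps Myh6, which encodes the alpha myosin heavy chain of the heart. Mir208b (chromosome 14, 54975700 to 54975776, minus strand) overlaps Myh7, the gene of the beta chain of heart and slow skeletal muscle, and the predicted gene Gm31251. Mir499 (chromosome 2, 155622880 to 155622958, plus strand) overlaps Myh7b, a further myosin heavy chain gene.

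Library totals ran from 1038799 reads in dmPGE2+APAP replicate 2 to 10483460 in Control replicate 3. Levels are given in CPM, read counts put on a common scale with library totals adjusted by the TMM method, and 1 read is worth 0.0921 to 0.852 CPM. Exact two-sided permutation tests of the mean total gave p = 0.1 for Control against either other group, the smallest value that 3 against 3 libraries allow, and p = 0.6 for APAP against dmPGE2+APAP. The 5 hepatocyte markers miR-122-5p, miR-192-5p, miR-194-5p, miR-148a-3p and miR-802-5p summed to 328466 to 524761 CPM across libraries, so the labelled tissue's markers were present in all of them, while the 7 muscle miRNAs summed to 315 to 2704 CPM.

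miR-1a-3p was the main muscle miRNA of these livers and made up 92.7% to 96.0% of the summed muscle level in every library. By mean Control level it ranked 29 of 946 rows. It held 17337, 7435 and 4911 reads in Control replicates 1, 2 and 3. That is 2543, 1010.2 and 452 CPM, and Control replicate 1 stood well above the other Control libraries. APAP livers held 298, 868 and 675 CPM. With dmPGE2 before APAP the level was 321, 373 and 683 CPM. The 3 groups overlapped, since Control replicate 3 fell among the treated livers, although the highest levels belonged to Control replicates 1 and 2. Group means stood in the order Control (1335 ± 1083 CPM, SD, n = 3), APAP (613 ± 290.2) and dmPGE2+APAP (459 ± 196), and neighbours in this order did not differ beyond their spread.

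miR-133a-3p, the partner of miR-1 on its primary transcripts, was far less abundant and ranked 135 of 946 rows in Control. Control replicates 1, 2 and 3 held 54.0, 31.8 and 16.0 CPM, from 368, 234 and 174 reads. APAP livers held 11.4, 20.8 and 26.8 CPM, and dmPGE2+APAP livers held 16.4, 18.7 and 26.2 CPM. The lowest Control library was again replicate 3, inside the APAP range and just below the lowest dmPGE2+APAP library, so both groups overlapped Control. The Control mean was 33.9 ± 19.1 CPM (SD, n = 3), followed by dmPGE2+APAP at 20.4 ± 5.10 and APAP at 19.7 ± 7.77, with no gap between neighbours beyond the spread.

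miR-499-5p, which is made from Myh7b in heart and slow muscle, had the largest fitted fold of the tested members. Control replicates 1, 2 and 3 held 101, 42.3 and 12.7 CPM, from 691, 311 and 138 reads. Levels in APAP were 3.89, 13.4 and 11.5 CPM, from 27, 98 and 48 reads. In dmPGE2+APAP they were 2.54, 1.70 and 10.2 CPM, from 18, 2 and 50 reads. All dmPGE2+APAP livers lay below all Control livers, whereas APAP replicate 2 lay just above Control replicate 3. The value of dmPGE2+APAP replicate 2 rests on 2 reads in the shallowest library, with an exact 95% interval for counting error of 0.206 to 6.16 CPM. PCR copies are not independent molecules, so such intervals cover counting error only.

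**Figure D1:**
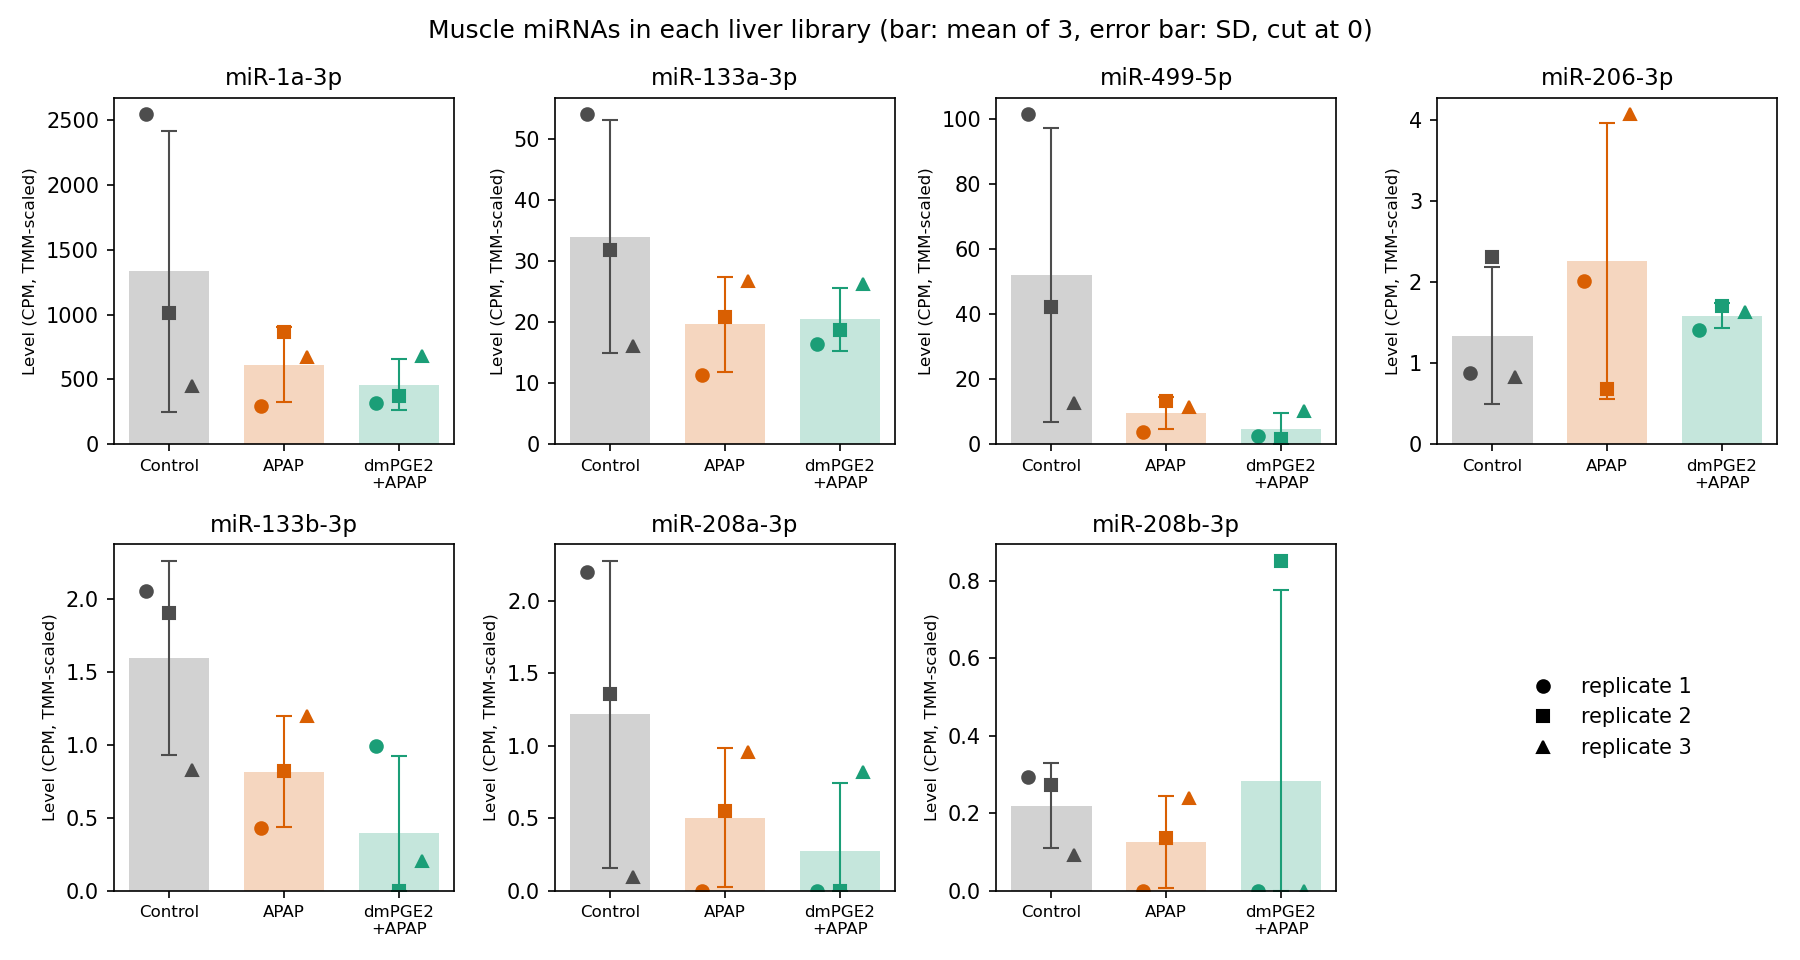
Level of each of the 7 muscle miRNAs in CPM (TMM-scaled) in the 9 liver libraries, with a panel and a vertical axis per miRNA. Symbols mark replicates 1, 2 and 3, bars the mean of 3 libraries and error bars the SD. Control replicate 1 held the highest miR-1a-3p (2543 CPM), miR-133a-3p (54.0 CPM) and miR-499-5p (101 CPM), and miR-206-3p did not share this order.

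miR-206-3p, the skeletal muscle relative, was near the lower limit of these libraries, with 5 to 17 reads in 8 libraries and 2 reads in dmPGE2+APAP replicate 2. Control replicates 1, 2 and 3 held 0.880, 2.31 and 0.829 CPM. The APAP livers held 2.02, 0.685 and 4.07 CPM, and those with dmPGE2 added held 1.41, 1.70 and 1.64 CPM. The groups overlapped, and Control replicate 1, the top library for miR-1a-3p, was among the lowest for miR-206-3p. Per read of miR-206-3p, the Control replicates held 2889.5, 437 and 546 reads of miR-1a-3p, and the APAP replicates 148, 1268 and 166. With dmPGE2 added they held 227, 219 and 418. Exact 95% counting intervals were 1327 to 7875 for Control replicate 1, the highest library, and 87.8 to 271 for APAP replicate 1, the lowest. APAP replicate 2 had an interval of 543 to 3906. The proportion of these relatives thus differed between libraries, while Control and APAP overlapped. The dmPGE2+APAP libraries lay below all Control libraries, as they did for 15.1% of 358 tested miRNAs set against miR-1a-3p in this way. Counting intervals of the nearest libraries overlapped, at 273 to 751 for Control replicate 2 and 212 to 968 for dmPGE2+APAP replicate 3.

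The remaining members were sparse, and none of them passed the filter on low counts. miR-133b-3p, clustered with miR-206, had 14, 14 and 9 reads in the Control libraries, 3, 6 and 5 reads after APAP, and 7, 0 and 1 reads with dmPGE2 added. The Control libraries were also the deepest, so these reads alone overstate the gap. In CPM, Control replicate 3 stood at 0.829, below APAP replicate 3 at 1.20 and also below dmPGE2+APAP replicate 1. Both treated groups thus overlapped Control in the level of miR-133b-3p. miR-208a-3p, the heart-specific member in Myh6, had 15, 10 and 1 reads in the Control libraries, 0, 4 and 4 reads after APAP, and 0, 0 and 4 reads with dmPGE2 added. Its 26 Control reads came mostly from replicates 1 and 2, the libraries that were also highest for miR-1a-3p. miR-208b-3p, from Myh7, had 8 reads in all 9 libraries and no more than 2 in any. At 0 reads a level of up to 2.56 CPM is allowed in dmPGE2+APAP replicate 2 (3 reads), which is above every measured value of either miR-208, so absence cannot be read from that library.

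Other strands of the same hairpins and their paralogs had few reads. Of 10 such names 4 are in the table, and none of them was tested. miR-133a-5p, the opposite strand of miR-133a-3p, had 0 to 19 reads a library and peaked in Control replicate 1. miR-1a-2-5p and miR-1b-3p held identical counts of 0 to 4 reads, and miR-208a-5p held 1 read in all.

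The first comparison asked whether acetaminophen changed these miRNAs in liver. With edgeR's quasi-likelihood test and Benjamini-Hochberg adjustment over the 360 miRNAs that passed the filter, 0 of the 4 tested members were called, beside 0.833% of all tested miRNAs. DESeq2 and limma-voom also called 0 members, in this and both other comparisons. 1 member, miR-499-5p, had an unadjusted p under 0.05 with a lower value, as did 3.33% of all tested miRNAs. No member (0 of 4) lay lower without overlap between the groups, where 8.06% of all miRNAs did. Values lay below 0 for 3 of 4 members against 55.3% of all miRNAs, with a median log2 change of -0.96 for the members and -0.05 for all.
For miR-499-5p the mean was 52.1 ± 45.1 CPM (SD, n = 3) in saline livers against 9.60 ± 5.04 after APAP, 5.43-fold lower in the fit, with a log2 value of -2.44 (SE 0.88, 95% interval -4.49 to -0.39). Its unadjusted p was 0.0256, and edgeR's adjusted p was 0.389. miR-1a-3p stood at -1.12 (SE 0.67, interval -2.69 to 0.44, edgeR's adjusted p 0.589) and miR-133a-3p at -0.79 (SE 0.39, interval -1.62 to 0.04, edgeR's adjusted p 0.5000). miR-206-3p had a value on the other side of 0, at 0.67 (SE 0.61, interval -0.62 to 1.96), and edgeR's adjusted p was 0.719.
Without Control replicate 1 the values were -1.43 for miR-499-5p, -0.18 for miR-1a-3p and -0.22 for miR-133a-3p. Without Control replicate 3 they were -2.89, -1.52 and -1.12 in the same order, and neither setting called a member. miR-206-3p ranged from 0.045 without APAP replicate 3 to 1.30 without Control replicate 2.

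The second comparison asked whether dmPGE2 altered the muscle miRNAs on top of acetaminophen. Here 0 of the 4 tested members were called, beside 0.278% of all miRNAs. An unadjusted p under 0.05 with a lower value was found for 0 members and 3.89% of all miRNAs, and 0 members lay lower without overlap, beside 8.06% of all. Values lay below 0 for 3 of 4 members and 50% of all miRNAs, with medians of -0.43 and 0.00 on the log2 scale.
For miR-499-5p the mean was 9.60 ± 5.04 CPM (SD, n = 3) with APAP alone against 4.82 ± 4.69 with dmPGE2 added, with a log2 value of -0.83 (SE 0.96, interval -3.08 to 1.41) and an edgeR adjusted p of 0.913. miR-1a-3p stood at -0.42 (SE 0.67, interval -1.97 to 1.14) and miR-206-3p at -0.45 (SE 0.67, interval -1.86 to 0.97), with an edgeR adjusted p of 0.923 each. miR-133a-3p had the narrowest interval, from -0.79 to 0.93 around 0.07 (SE 0.40), and edgeR's adjusted p was 0.989. All 4 intervals hold 0, so these libraries set no direction for any of the members. With a library left out, miR-499-5p ranged from -2.0 (without dmPGE2+APAP replicate 3) to -0.39 (without dmPGE2+APAP replicate 1), and miR-1a-3p from -0.83 (without dmPGE2+APAP replicate 3) to -0.073 (without APAP replicate 2).

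The third comparison set livers given both drugs against saline livers and shares its Control libraries with the first. Again 0 of 4 tested members were called, beside 0.278% of all miRNAs. Values lay below 0 for 3 of 4 members and 53.9% of all miRNAs, with medians of -1.13 and -0.03 on the log2 scale. 1 member, miR-499-5p, lay lower with no overlap between the groups, as did 8.61% of all tested miRNAs, and it had an unadjusted p under 0.05, as did 5% of all with a lower value.
Its mean of 52.1 ± 45.1 CPM (SD, n = 3) in saline livers compared with 4.82 ± 4.69 in livers given both drugs, with a log2 value of -3.28 (SE 0.96, interval -5.52 to -1.03). That is 9.69-fold lower in the fit, with an unadjusted p of 0.0102, which ranked 12 of 360, and an edgeR adjusted p of 0.277. miR-1a-3p stood at -1.54 (SE 0.68, interval -3.12 to 0.05, edgeR's adjusted p 0.465) and miR-133a-3p at -0.72 (SE 0.40, interval -1.57 to 0.13, edgeR's adjusted p 0.5004). miR-206-3p was at 0.23 (SE 0.67, interval -1.20 to 1.66), and edgeR's adjusted p was 0.894.
Without Control replicate 1 the log2 values became -2.25 for miR-499-5p, -0.56 for miR-1a-3p and -0.11 for miR-133a-3p. Leaving out dmPGE2+APAP replicate 3, which holds 50 of the group's 70 reads of miR-499-5p, gave -4.40 for that miRNA, again with no call.

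**Figure D2:**
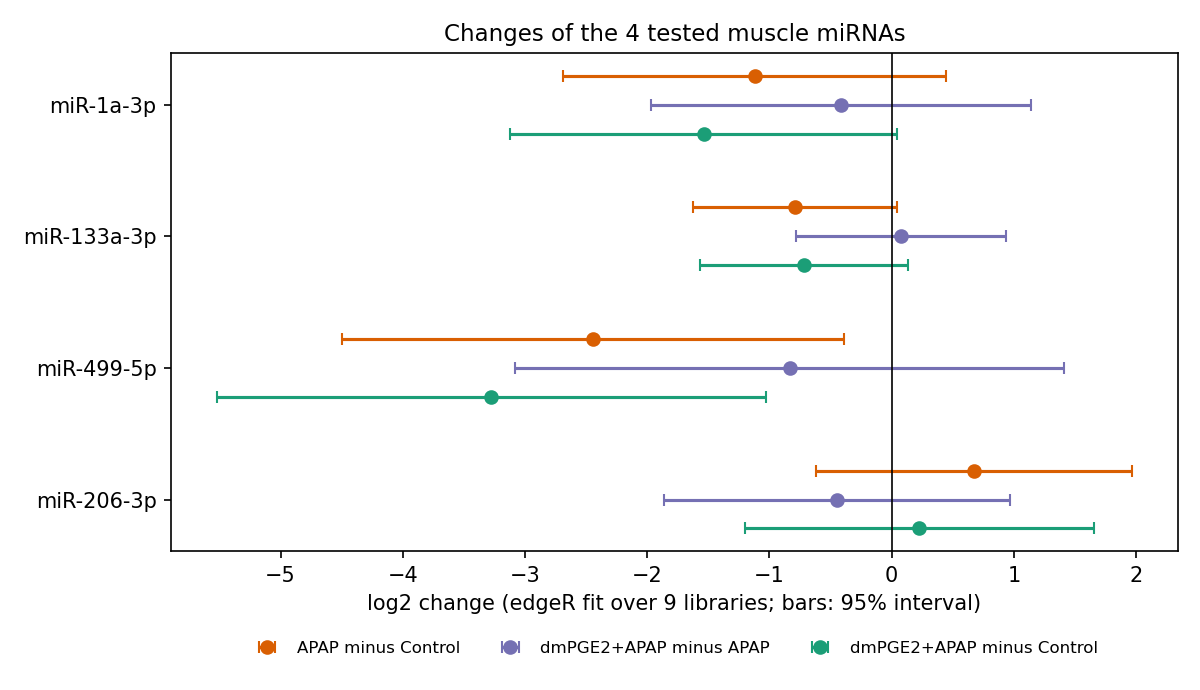
Log2 change of the 4 tested muscle miRNAs (vertical axis) in the 3 comparisons (colours), from the edgeR fit over 9 libraries, with 95% intervals as bars. Only the intervals of miR-499-5p against Control leave out 0 (-4.49 to -0.39 with APAP, -5.52 to -1.03 with dmPGE2+APAP), and no member passed after adjustment over all miRNAs.

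The tested members spread widely between replicates in Control and in APAP, but not all of them did so in dmPGE2+APAP. Their several-fold range in Control was known when they were chosen, so the Control ratios and ranks are a description only. The coefficient of variation below comes from all 9 libraries, Control included, so its values and ranks are also a description only. Within Control the highest library exceeded the lowest 7.97-fold for miR-499-5p, 5.62-fold for miR-1a-3p, 3.37-fold for miR-133a-3p and 2.79-fold for miR-206-3p, against a median of 1.55-fold over the 360 tested miRNAs. By this ratio they ranked 7, 12, 27 and 43 from the widest. The biological coefficient of variation, edgeR's estimate of the relative spread between replicates beyond counting error, was 0.721 for miR-499-5p and 0.547 for miR-1a-3p, at ranks 2 and 5 of 360. It was 0.405 for miR-206-3p and 0.349 for miR-133a-3p, against a median of 0.256. Within APAP the same ratio was 5.94 for miR-206-3p, 3.45 for miR-499-5p, 2.92 for miR-1a-3p and 2.36 for miR-133a-3p, against a median of 1.48. In that order their ranks from the widest were 8, 17, 24 and 46. Within dmPGE2+APAP the ratio was 6.00 for miR-499-5p, 2.13 for miR-1a-3p, 1.60 for miR-133a-3p and 1.21 for miR-206-3p, against a median of 1.56. Here the ranks were 25, 110, 176 and 305 of 360, so by this ratio miR-206-3p was among the narrower ones. Its ratio rests on 10, 2 and 8 reads, and the lowest miR-499-5p library also held 2 reads. For either miRNA, counting error alone spanned 0.206 to 6.16 CPM in dmPGE2+APAP replicate 2. These 2 ratios therefore do not measure the spread between replicates apart from counting error.

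**Figure D3:**
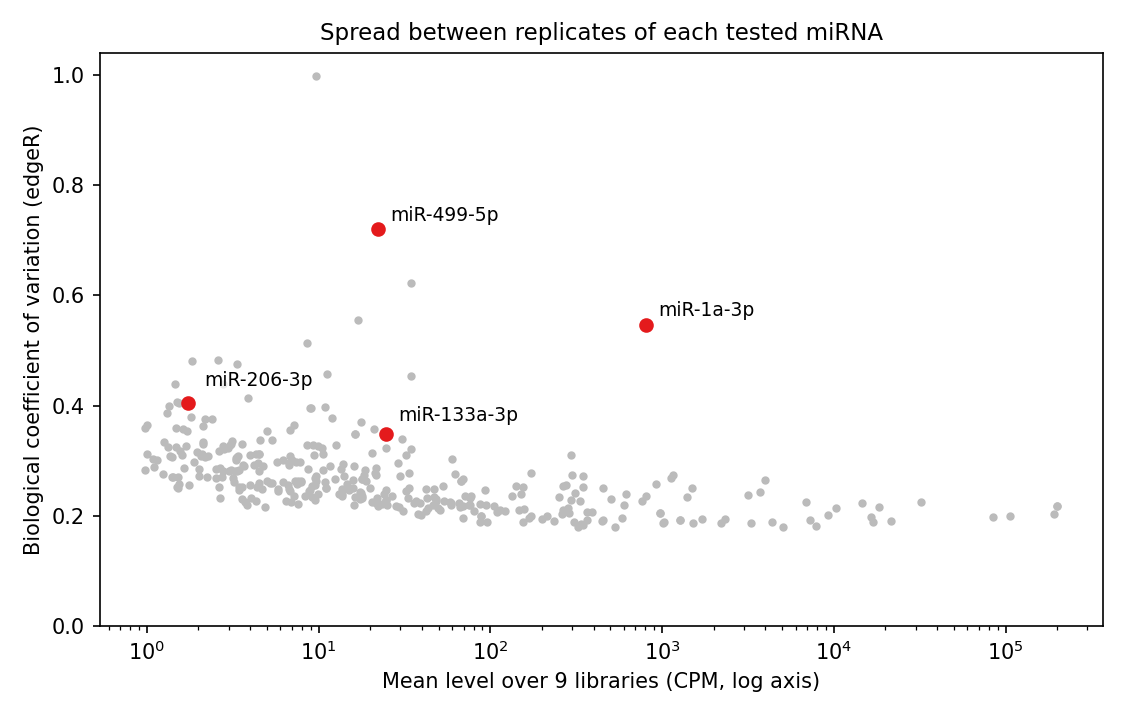
Biological coefficient of variation (vertical axis) against mean level in CPM (horizontal log axis) for each of the 360 tested miRNAs, with muscle miRNAs in red. miR-499-5p (0.721) and miR-1a-3p (0.547) lie above most miRNAs of like level, and miR-133a-3p (0.349) and miR-206-3p (0.405) lie nearer to them. The estimate includes the Control libraries, whose range was known when the members were chosen, so it is a description only.

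**Figure D4:**
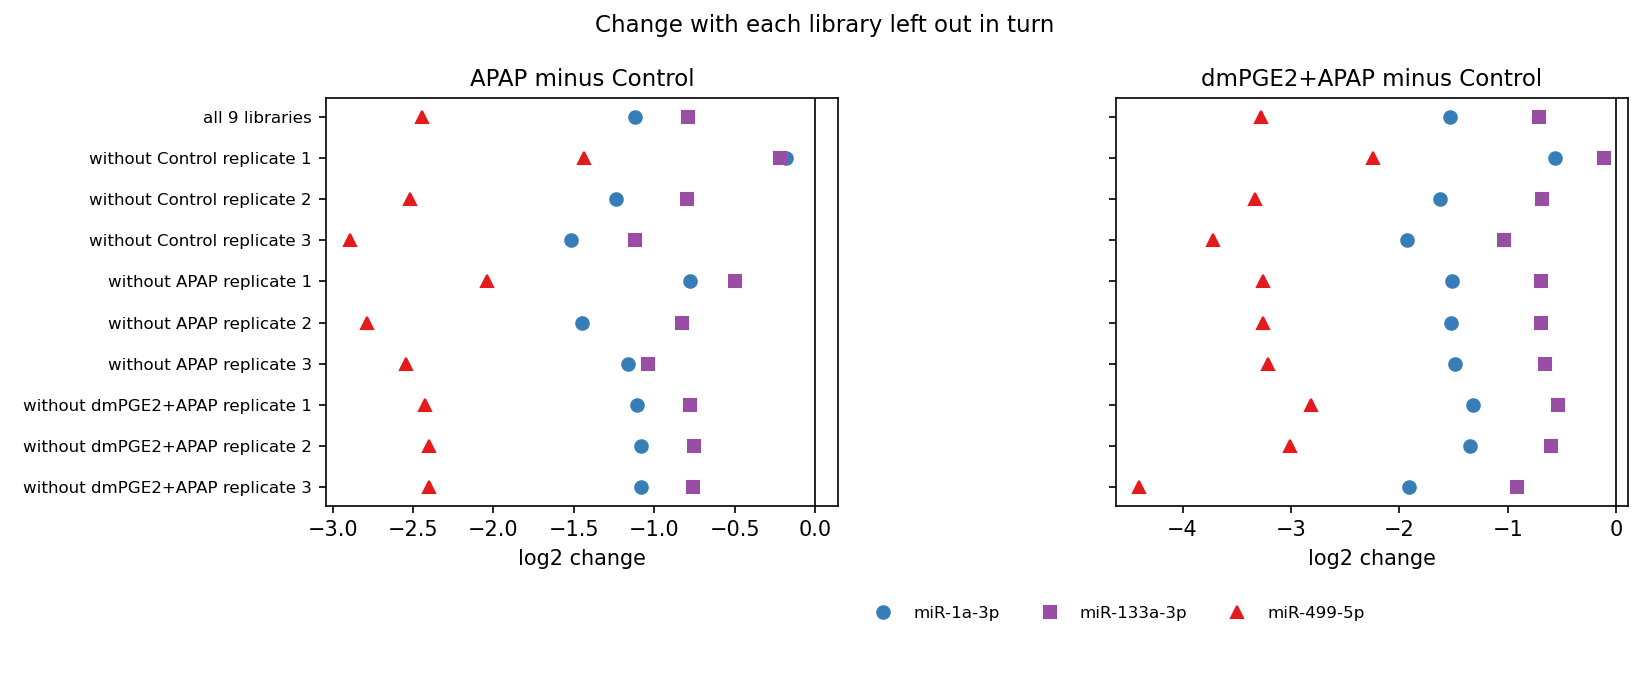
Log2 change of miR-1a-3p, miR-133a-3p and miR-499-5p (horizontal axis) with all 9 libraries and with each library left out in turn (vertical axis), for APAP against Control (left) and dmPGE2+APAP against Control (right). Leaving out Control replicate 1 brought all 3 closest to 0, with miR-1a-3p at -0.18 and -0.56, and none of the values crossed 0.

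miR-1a-3p, miR-133a-3p and miR-499-5p shared the same order within Control, replicate 1 above 2 above 3. Ratios of reads within a library do not depend on how libraries are scaled, and these ratios were chosen after the values were seen, so they are given as a description with no test. Control replicates 1, 2 and 3 held 47.1, 31.8 and 28.2 reads of miR-1a-3p per read of miR-133a-3p. The same ratio was 26.2, 41.7 and 25.2 after APAP, and 19.6, 19.9 and 26.1 with dmPGE2 added. Control and APAP overlapped in this ratio. The dmPGE2+APAP libraries lay below all Control libraries, as they did for 15.1% of the 358 other tested miRNAs set against miR-1a-3p in the same way. The nearest libraries overlapped within exact 95% counting intervals, at 24.3 to 33.0 for Control replicate 3 and 21.9 to 31.4 for dmPGE2+APAP replicate 3.

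In these libraries the proportion of miR-499-5p to miR-1a-3p did not overlap between Control and the livers given APAP. A difference between the groups was not tested. Control replicates 1, 2 and 3 held 25.1, 23.9 and 35.6 reads of miR-1a-3p per read of miR-499-5p. This ratio was 76.6, 64.7 and 58.8 after APAP, and 126, 219 and 66.8 with dmPGE2 added. All 6 livers given APAP stood above all 3 Control livers. Exact 95% counting intervals were 30.0 to 42.5 for Control replicate 3, the highest Control library, and 44.2 to 79.9 for APAP replicate 3, the lowest treated one. For dmPGE2+APAP replicate 2 the interval ran from 60.3 to 1814, since it rests on 2 reads of miR-499-5p. Of 358 other tested miRNAs, 1 (0.279%) showed this separation of both treated groups above Control in the number of miR-1a-3p reads per own read, and it was miR-499-5p, the miRNA for which the ratio was chosen. The fitted value of miR-1a-3p was itself below 0 against Control, so a miRNA had to lie lower still to be counted, and this share adds no support to the ratio. Reads of miR-133a-3p per read of miR-499-5p numbered 0.533, 0.752 and 1.26 in the Control libraries and 1.55 or more in all 6 livers given APAP, namely 2.93, 1.55 and 2.33 with APAP alone and 6.44, 11 and 2.56 with dmPGE2 added. Counting intervals of the nearest libraries overlapped, at 1.00 to 1.59 for Control replicate 3 and 1.20 to 2.02 for APAP replicate 2. Set against miR-133a-3p in this way, 0.279% of 359 other miRNAs separated likewise, which again was miR-499-5p alone and adds no support.

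**Figure D5:**
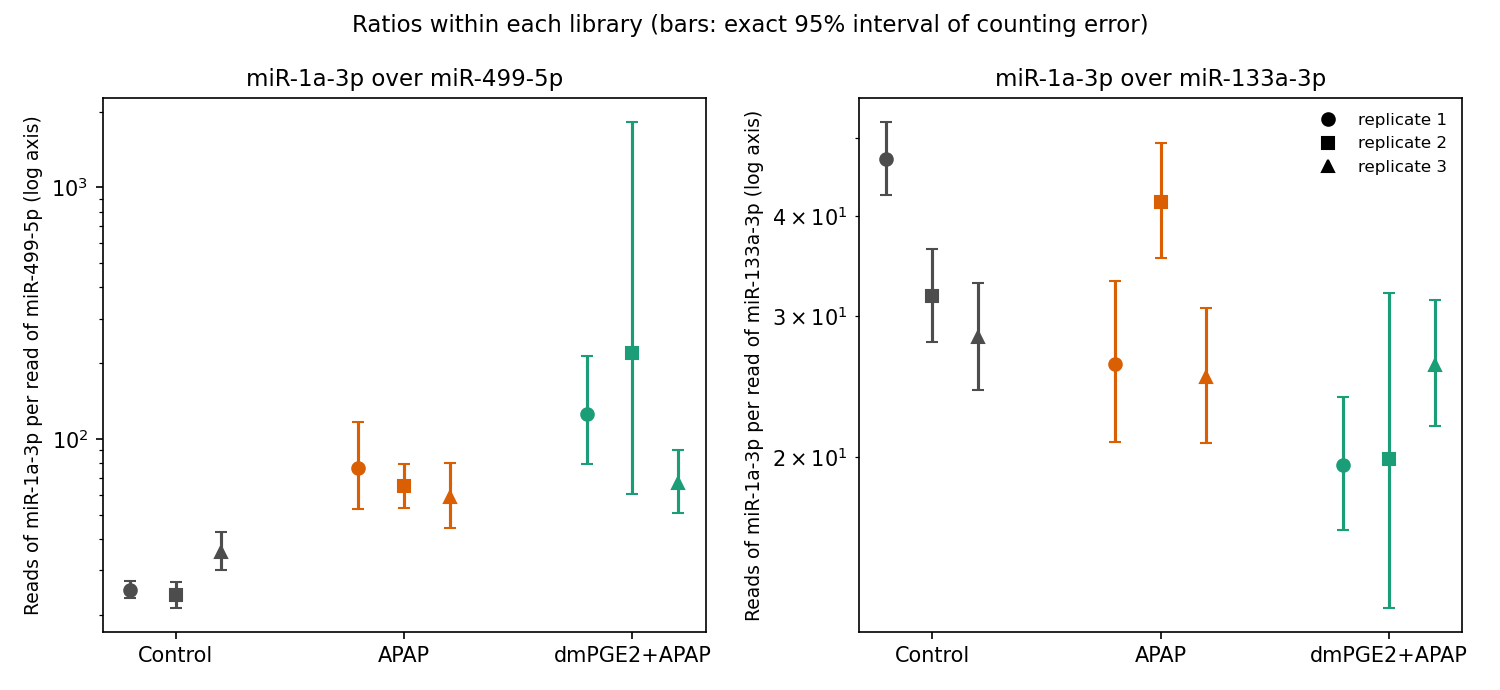
Reads of miR-1a-3p per read of miR-499-5p (left) and of miR-133a-3p (right) in each library, on log axes, with exact 95% intervals of counting error as bars and symbols for replicates 1, 2 and 3. On the left the Control libraries lie between 23.9 and 35.6, below all 6 livers given APAP (58.8 to 219), and on the right Control and APAP overlap.

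Markers of other tissues were set beside these values by library. Of the skeletal muscle markers, miR-206-3p and miR-133b-3p together held 1.66 to 4.21 CPM across Control libraries, 1.51 to 5.26 after APAP and 1.70 to 2.40 with dmPGE2 added. The heart marker miR-208a-3p held 0.0921 to 2.20 CPM in Control and was at 0 in APAP replicate 1 and dmPGE2+APAP replicates 1 and 2. The smooth muscle and fibroblast markers miR-143-3p and miR-145a-5p summed to 25582 to 41220 CPM across Control libraries. They summed to 24109 to 36624 CPM after APAP and 25397 to 41070 CPM with dmPGE2 added, and Control replicate 1 was the highest library. Red-cell markers (3 of 3 rows) summed to 393 to 482 CPM across Control libraries, 632 to 1241 after APAP and 302 to 334 with dmPGE2 added. APAP replicate 1 was highest for red-cell markers and lowest of all libraries for miR-1a-3p. In contrast, dmPGE2+APAP replicates 1 and 2 were low for both. They held 309 and 302 CPM of red-cell markers and 321 and 373 CPM of miR-1a-3p. Over all 9 libraries the endothelial markers summed to 7436 to 10173 CPM, the myeloid ones to 118 to 309 and the epithelial ones to 472 to 986. The brain ones summed to 3.80 to 29.0 and the pancreas ones to 0.852 to 3.35 CPM. Control replicate 1 was the highest of all libraries in none of these 5 lists. Within Control, however, replicate 1 was highest for endothelial (9114 CPM), myeloid (228), pancreas (2.49) and brain (7.19) markers. It was the lowest Control library for epithelial markers (473 CPM). The part of any of these tissues in the levels of the muscle miRNAs was not tested, and in whole liver fewer cells of a type and less RNA per cell cannot be told apart.

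A wider list held miRNAs that act in muscle but are made in many tissues. Of 20 such names 19 were tested, and edgeR called 0 higher and 0 lower in each comparison. Of all tested miRNAs it called 0.833%, 0.278% and 0.278% in the 3 comparisons. Their median log2 values were 0.00 for APAP against Control, 0.04 for dmPGE2+APAP against APAP and 0.00 for dmPGE2+APAP against Control. miR-486a-5p, which is abundant in both muscle and red cells, stood at 1.17 (SE 0.29) after APAP and at -1.18 (SE 0.29) when dmPGE2 was added, and edgeR's adjusted p was 0.0571 and 0.0912. miR-145a-5p, of smooth muscle, stood at -0.60 (SE 0.27) after APAP, where edgeR's adjusted p was 0.478. DESeq2 called miR-486a-5p and miR-23a-3p higher after APAP and miR-486a-5p lower with dmPGE2 added, and limma-voom called 0 of the list. All of these calls were also made with no filter on low counts. Both calls after APAP were also made with only the 2 groups compared, and that of miR-486a-5p with library totals. With the replicate block or thinning to the shallowest library, 0 of the list were called, so these calls depend on the setting.

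The miRNAs whose levels ran most like miR-1a-3p over the 9 libraries were searched among 204 tested rows with a mean of at least 10 CPM. By Pearson's r of log2 CPM the nearest were miR-133a-3p (0.938), miR-499-5p (0.926), miR-1843a-5p (0.884), miR-340-5p (0.841) and miR-532-5p (0.799). For miR-499-5p the nearest, beside miR-1a-3p, were miR-532-5p (0.864), miR-148a-3p (0.845) and miR-133a-3p (0.822). For miR-133a-3p they were miR-1a-3p (0.938), miR-1843a-5p (0.931), miR-192-5p (0.830) and miR-101a-3p (0.8295), with miR-499-5p next. These are descriptions over 9 libraries in 3 groups. All miRNAs of a library share its depth and scaling, and the groups differed in mean depth, which was highest in Control. miR-1843a-5p had group means of 468 CPM for Control, 436 for APAP and 442 for dmPGE2+APAP, so its levels lay much closer together than those of miR-1a-3p.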

How the data were processed

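Small RNA of 9 mouse liver libraries was analysed. The deposited counts are whole reads per mature miRNA, per the file headers. Bowtie and mm10 are named in the submitters' processing notes. TPM columns, also deposited, hold each count over its library total times a constant (999990 to 999997), with no length term, and served for 1 alternative. Columns were matched to samples by prefix and number, and the prefix BC was read as Control because the other prefixes spell the other groups. Of the value columns, 0 were left unused.

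Counts were tested with edgeR 4.0.16 in R 4.3.3 (TMM scaling, filterByExpr with a minimum count of 10 and minimum total of 15, robust quasi-likelihood test). The fit held all 9 libraries and 3 group means, Benjamini-Hochberg adjustment ran over 360 miRNAs, and the threshold was 0.05. SE was derived from the F statistic. Alternatives used limma 3.58.1 and DESeq2 1.42.0. The scripts were tested on simulated data. Rows whose counts lay within 5% or 2 reads of each other across all libraries were taken to share reads. All members are named in the text by a fixed rule, with other strands, a muscle pathway list, tissue markers and the 5 most similar miRNAs. Members and lists were chosen with earlier results of these data known.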

Additional observations from a re-analysis of the deposited data

How the results depend on the processing

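In each of the 3 comparisons the count of called members was 0 in the reported fit and under each of 21 alternatives, from 13 choices, with 3 to 7 members tested, and leaving out each library in turn gave 0 to 0. For miR-499-5p against Control, the log2 value ranged from -2.89 to -1.43 with APAP and from -4.40 to -2.25 with dmPGE2+APAP, with adjusted p of 0.108 or more and 0.0620 or more, the latter being DESeq2's. miR-1a-3p ranged from -1.52 to -0.18 and from -1.93 to -0.56, and miR-133a-3p from -1.12 to -0.22 and from -1.03 to -0.11. The end nearest 0 always came without Control replicate 1. Of the 4 members tested in the reported fit, signs changed for miR-133a-3p and miR-206-3p only. For dmPGE2+APAP against APAP, miR-133a-3p became -0.074 after thinning to the shallowest library and, with a library left out, ranged from -0.20 (without APAP replicate 1) to 0.38, also falling below 0 without dmPGE2+APAP replicate 3 (-0.16). miR-206-3p became 0.0071 with limma-voom and, with a library left out, ranged from -0.91 to 0.25 (without APAP replicate 3). For dmPGE2+APAP against Control, miR-206-3p ranged from -0.022 (without Control replicate 3) to 0.89 with a library left out. Scaling to library totals moved the median of all miRNAs by 0.25 for APAP against Control and 0.22 for dmPGE2+APAP against Control. Replicate numbers were not taken to pair the samples. Same-numbered deviations correlated at -0.248 to 0.172 and differently numbered ones at -0.281 to 0.152. With 3 libraries a group, this check cannot decide whether the samples are paired. With the replicate block 0 members were called in each comparison. miR-133b-3p and both miR-208 rows held too few reads to pass the filter in the reported fit, and with no filter their adjusted p was 0.687 or more. Some alternatives tested miR-133b-3p. For dmPGE2+APAP against APAP its sign varied, from -2.12 without dmPGE2+APAP replicate 1 to 0.069 without dmPGE2+APAP replicate 3.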
